A study of Homo sapiens with 16 samples.

Results

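The transcription of 10 genes for protein kinases of cell division was followed through every condition of a PRO-seq study of LNCaP cells: AURKA, AURKB, PLK1, PLK4, BUB1, BUB1B, TTK, NEK2, MELK and PBK. They were taken by name, with earlier results of these data known, and all 10 were found among the 60605 gene identifiers of each count table. LNCaP is an established human prostate cancer cell line that depends on the androgen receptor. PRO-seq is a nuclear run-on assay that counts engaged RNA polymerases, so the counts report ongoing transcription rather than stored mRNA. The counts are given per gene, so where along a gene the polymerases stood cannot be told. Batch 1 compared mock-treated cells with cells given 6 Gy of ionizing radiation (IR), with replicates 1 and 2 in each group. Batch 2 compared 4 groups with replicates 3 and 4 in each. These were cells treated with the vehicle DMSO for 90 min, cells that received 6 Gy after 30 min in vehicle and were collected 60 min later, cells treated with 10 µM enzalutamide for 90 min, and cells that received 6 Gy after 30 min in enzalutamide and were collected 60 min later. Enzalutamide is an antagonist of the androgen receptor used against prostate cancer. All groups are of the 1 cell line, the labels name no separate cultures behind the replicate numbers, and p-values therefore measure only the spread between these samples, which may be technical.

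Mitotic kinases drive the passage from G2 into and through mitosis. Aurora A (AURKA) and Polo-like kinase 1 (PLK1) act at centrosomes and spindle poles and promote mitotic entry, Aurora B (AURKB) is the enzyme of the chromosomal passenger complex at centromeres, and BUB1, BUBR1 (BUB1B) and MPS1 (TTK) belong to the spindle assembly checkpoint, which holds anaphase until chromosomes are attached. Many of these genes are transcribed mainly in G2 and mitosis, through the cell cycle genes homology region (CHR, TTTGAA) and CCAAT boxes in their promoters. The CHR is bound by the MuvB core, as part of the repressive DREAM complex or with B-MYB and FOXM1 as an activator, and CCAAT boxes are bound by NF-Y. In bulk samples such as these, fewer cells in G2 and mitosis and less transcription per cell cannot be told apart.

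The bases before annotated transcription starts of the kinase genes show which of these letters lie there. RefSeq promoter windows (GRCh38.p14) matched 7 of the 10 genes, and the 160 bases before the transcription start are given 5′ to 3′ on the strand of the gene. Capitals mark TTTGAA and CCAAT, and ATTGG, which is CCAAT on the opposite strand. The genes are ordered from those that hold TTTGAA to those that hold neither.
PLK1: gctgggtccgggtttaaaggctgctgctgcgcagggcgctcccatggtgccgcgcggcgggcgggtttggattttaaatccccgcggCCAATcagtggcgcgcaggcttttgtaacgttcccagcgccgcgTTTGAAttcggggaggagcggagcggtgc
BUB1B: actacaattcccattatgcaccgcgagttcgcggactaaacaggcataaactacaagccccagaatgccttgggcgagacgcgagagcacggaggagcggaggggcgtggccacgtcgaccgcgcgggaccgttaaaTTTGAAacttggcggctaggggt
BUB1: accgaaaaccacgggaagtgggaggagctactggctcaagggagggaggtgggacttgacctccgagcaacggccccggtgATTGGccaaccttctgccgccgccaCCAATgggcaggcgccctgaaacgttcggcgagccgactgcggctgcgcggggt
NEK2: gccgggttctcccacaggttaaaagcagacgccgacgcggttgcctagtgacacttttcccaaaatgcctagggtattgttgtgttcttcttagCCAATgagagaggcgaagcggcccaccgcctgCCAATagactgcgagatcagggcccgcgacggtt
AURKB: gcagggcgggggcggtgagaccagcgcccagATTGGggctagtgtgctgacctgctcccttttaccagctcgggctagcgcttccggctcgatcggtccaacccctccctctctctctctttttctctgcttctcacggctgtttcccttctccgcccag
PLK4: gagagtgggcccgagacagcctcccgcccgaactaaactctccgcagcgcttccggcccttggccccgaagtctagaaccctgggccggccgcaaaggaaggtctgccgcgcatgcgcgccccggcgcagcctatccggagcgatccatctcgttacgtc
MELK: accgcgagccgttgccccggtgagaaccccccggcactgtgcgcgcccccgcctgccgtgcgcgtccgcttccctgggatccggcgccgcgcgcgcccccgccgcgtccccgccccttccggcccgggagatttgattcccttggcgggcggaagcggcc
The PLK1 window (chr16:23678729-23678888, plus strand) held CCAAT 73 bases and TTTGAA 29 bases before the start. The BUB1B window (chr15:40160909-40161068, plus strand) held TTTGAA 23 bases before the start and no CCAAT. Paired CCAAT boxes stood in BUB1 (chr2:110678064-110678223, minus strand), at 54 bases and, on the opposite strand, at 79 bases before the start. They also stood in NEK2 (chr1:211675622-211675781, minus strand), at 66 and 34 bases before the start. AURKB (chr17:8210250-8210409, minus strand, the first of 2 start sites in the table) held 1 CCAAT on the opposite strand, 129 bases before the start. Both AURKB start sites (8210249 and 8210225) lie inside the gene span, whose upstream end is at 8210575. The bases upstream of the whole AURKB gene were therefore not searched, and its window does not show what they hold. PLK4 (chr4:127880733-127880892, plus strand, the first of 3 start sites) and MELK (chr9:36572735-36572894, plus strand) held neither. At PLK4 a TTTGAA on the opposite strand lay at position 39 after that start, and the third start site had a CCAAT on the opposite strand 86 bases upstream. Searched on both strands, TTTGAA was found in 7.8% and CCAAT in 24.5% of all 35116 windows of these 160 bases. A match of letters is a description and not a measured site of binding.

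Depth was 3438642 to 9363458 counts per library in batch 1, 8022989 to 16851473 per sample after the t1 and t2 libraries of a replicate were summed, and 10494563 to 19905824 per library in batch 2. The mitochondrial share of reads was 2.857% to 5.377% in batch 1 and 0.57% to 0.934% in batch 2. The 9 luminal prostate markers summed to 2510 to 3400 CPM, the count scaled to library size, in the 12 samples. Markers of stroma (8.23 to 12.6 CPM), basal epithelium (4.36 to 9.1 CPM), endothelium (2.91 to 6.23 CPM) and immune cells (0.727 to 1.75 CPM) were low, with none listed at 0 in any sample. Among the luminal markers KLK3 stood at 137 to 183 CPM in batch 1 and at 5.07 to 16.7 CPM in batch 2. The t1 and t2 libraries of batch 1, whose meaning the labels do not give, stood apart from each other. Of 21749 genes tested in both, 39.5% had irradiated libraries all above the mock libraries in t1 and all below them in t2, or the reverse, so results of batch 1 are also given for t1 alone and t2 alone. Levels below are CPM scaled by TMM factors over the 12 samples, and log2 changes come from edgeR's quasi-likelihood test with its standard error (SE) and Benjamini-Hochberg adjusted p over all genes tested.

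Transcription of 7 of the 10 kinase genes fell after IR in each of the 3 separate comparisons, and the same 7 passed each time: AURKA, PLK1, BUB1, NEK2, AURKB, TTK and BUB1B. Over all genes, 0.353% passed as lower in vehicle-treated cells, 0.293% in enzalutamide-treated cells and 0.819% in batch 1. With 1 sample left out, 3 to 7 of the 10 passed in either comparison of batch 2, and AURKA, PLK1 and BUB1 passed in each such fit. PBK did not pass in the separate comparisons but did when both batches were fitted together, where 8 of the 10 kinase genes fell against 1.66% of all genes. MELK and PLK4 did not pass in any of these fits. The median log2 change of the 10 genes was -0.68 in vehicle-treated cells, -0.73 in enzalutamide-treated cells and -0.96 in batch 1, beside medians over all genes of -0.0057, -0.014 and -0.0021.

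**Figure D1:**
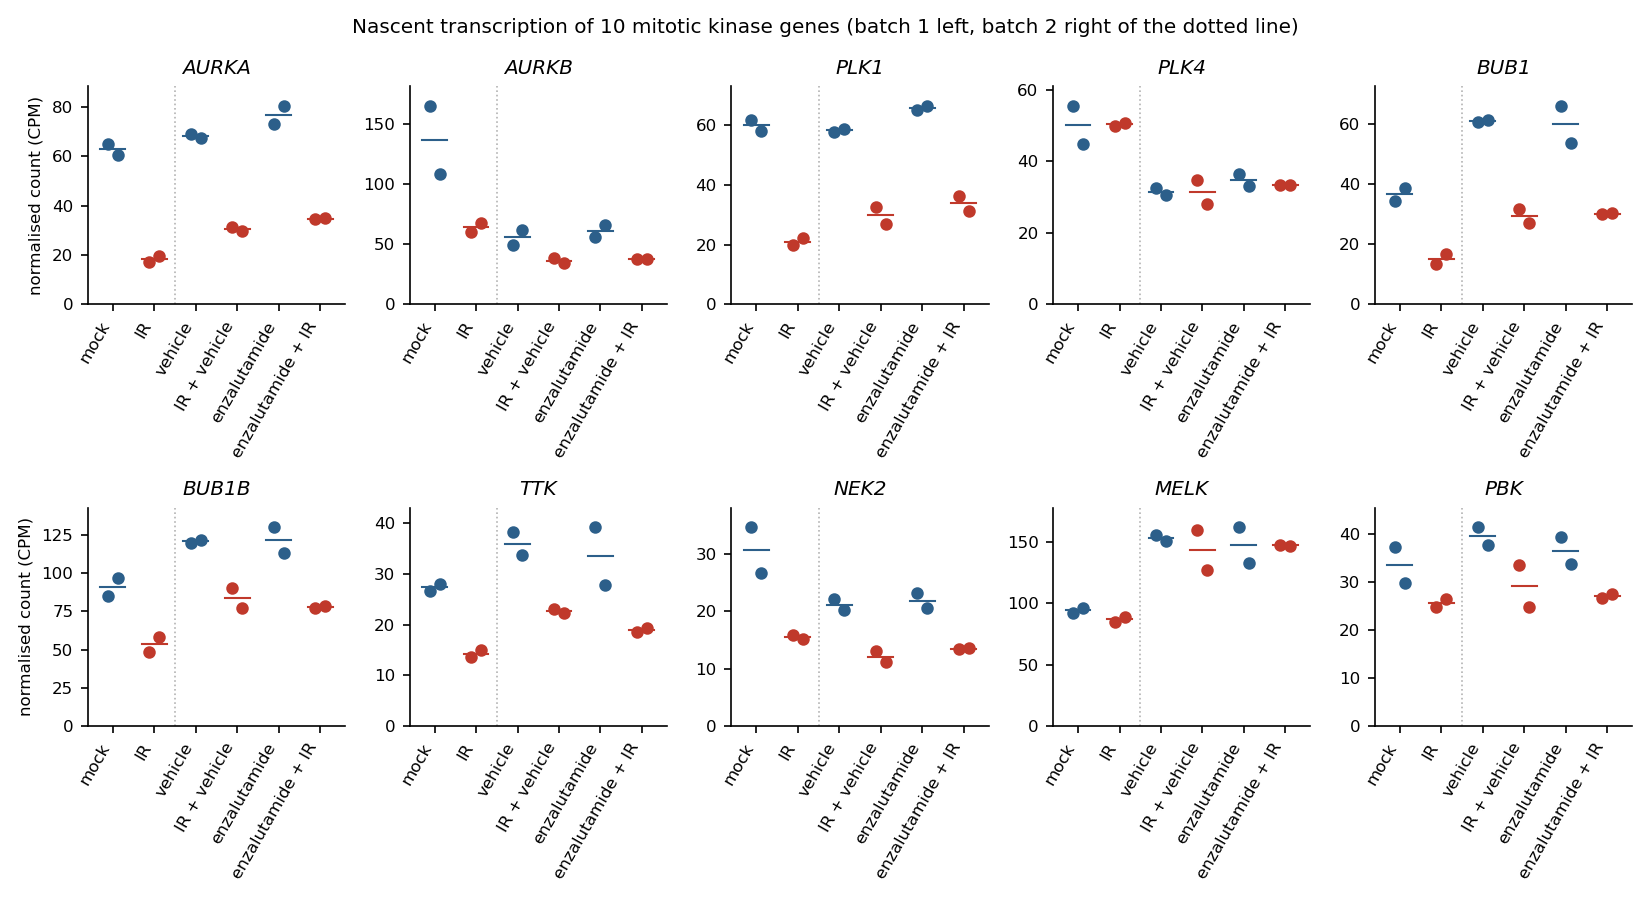
Normalised counts (CPM, linear axes from 0) of the 10 kinase genes in the 6 groups, with batch 1 left and batch 2 right of the dotted line. Points are samples, bars are group means, blue is without and red with radiation. AURKA ranged from 60.5 to 80.4 CPM in the samples without IR and from 17.1 to 34.8 CPM in the irradiated ones, while PLK4 overlapped between them.

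AURKA (ENSG00000087586, chr20:56369390-56392215) showed the largest fall among the 10 genes in all 3 separate comparisons. It stood at 65.0 and 60.5 CPM in mock, 17.1 and 19.7 CPM after IR in batch 1, 68.9 and 67.5 CPM in vehicle, 31.4 and 29.9 CPM after IR with vehicle, 73.1 and 80.4 CPM in enzalutamide, and 34.4 and 34.8 CPM after IR with enzalutamide. Every irradiated sample lay below every sample without IR. The log2 change was -1.19 (SE 0.0949, edgeR adjusted p 1.17e-05) in vehicle-treated cells, which left 44.9% of the vehicle level. In enzalutamide-treated cells it was -1.18 (SE 0.0948, edgeR adjusted p 1.41e-05), and in batch 1 it was -1.76 (SE 0.117, edgeR adjusted p 2.15e-06), which left 29.3% of the mock level. Ranked among the genes that fell in vehicle-treated cells, AURKA was number 7 of 101 by the size of the fall, and with enzalutamide number 4 of 84. The pseudogene AURKAP1, a near copy, held 530 counts over all 16 libraries, and reads that could align to both are a limit on AURKA.

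PLK1 (ENSG00000166851, chr16:23678889-23690367), the kinase that activates CDC25C and cyclin B-CDK1 at mitotic entry, followed AURKA closely. Its levels were 61.7 and 58.2 CPM in mock, 19.9 and 22.2 CPM after IR in batch 1, 57.8 and 58.9 CPM in vehicle, 32.6 and 27.0 CPM after IR with vehicle, 65.1 and 66.5 CPM in enzalutamide, and 36.4 and 31.3 CPM after IR with enzalutamide. Irradiated samples again lay below all others. The log2 change was -1.01 (SE 0.109, edgeR adjusted p 0.000202) in vehicle-treated cells, -0.99 (SE 0.109, edgeR adjusted p 0.000265) in enzalutamide-treated cells and -1.5 (SE 0.113, edgeR adjusted p 6.07e-06) in batch 1. The level after IR was thus 51.1%, 51.5% and 35.2% of its control.

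NEK2 (ENSG00000117650, chr1:211658256-211675621), a kinase that loosens the link between centrosomes before the spindle forms, fell in each comparison. It went from 34.6 and 26.6 CPM in mock to 15.9 and 15.1 CPM after IR, from 22.1 and 20.2 CPM in vehicle to 13.0 and 11.2 CPM, and from 23.1 and 20.5 CPM in enzalutamide to 13.4 and 13.5 CPM. Its log2 change was -0.84 (SE 0.13, edgeR adjusted p 0.00407) in vehicle-treated cells, -0.73 (SE 0.13, edgeR adjusted p 0.0137) in enzalutamide-treated cells and -0.98 (SE 0.147, edgeR adjusted p 0.00188) in batch 1. Groups with and without IR did not overlap within a batch. In vehicle-treated cells the call was lost without vehicle replicate 3 (edgeR adjusted p 0.0642) and without replicate 4 of IR with vehicle (0.084), and in enzalutamide-treated cells without enzalutamide replicate 3 (0.0687) or without replicate 3 (0.191) or 4 (0.177) of IR with enzalutamide. The pseudogene FDPSP8 lies within 6.7% of its span.

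PLK4 (ENSG00000142731, chr4:127880893-127899224), the kinase that starts centriole duplication, did not pass in any fit of the summed samples. It stood at 55.5 and 44.8 CPM in mock and 50 and 50.7 CPM after IR in batch 1. In batch 2 it was 32.5 and 30.5 CPM in vehicle, 34.7 and 28.0 CPM after IR with vehicle, 36.5 and 33.0 CPM in enzalutamide, and 33.3 and 33.5 CPM after IR with enzalutamide. The groups overlapped in all 3 comparisons. The log2 change was -0.045 (95% interval -0.29 to 0.20) with vehicle, -0.10 (-0.34 to 0.15) with enzalutamide and 0.011 (-0.25 to 0.27) in batch 1. Falls of the size seen for AURKA, PLK1 and BUB1 lay outside these intervals. In batch 1 this holds for the summed samples only. The interval was 0.22 to 0.87 with t1 alone and -0.97 to -0.45 with t2 alone, and the latter includes the change of BUB1 in t2 (-0.83).

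AURKB (ENSG00000178999, chr17:8204731-8210575) fell as well, from a level that differed between batches. It measured 165 and 108 CPM in mock and 60.4 and 68.0 CPM after IR in batch 1, 49.5 and 61.8 CPM in vehicle, 38.5 and 34.5 CPM after IR with vehicle, 55.7 and 66.2 CPM in enzalutamide, and 38.0 and 37.8 CPM after IR with enzalutamide. Irradiated samples of batch 1 (64.2 ± 5.34 CPM, SD, n = 2) were therefore above the vehicle samples of batch 2 (55.6 ± 8.74 CPM, SD, n = 2) on average, with overlap. Within batches the log2 change was -0.65 (SE 0.127, edgeR adjusted p 0.0239) with vehicle, -0.72 (SE 0.128, edgeR adjusted p 0.0136) with enzalutamide and -1.08 (SE 0.168, edgeR adjusted p 0.0025) in batch 1. The call with vehicle was lost without vehicle replicate 4 (edgeR adjusted p 0.267) and without replicate 3 (0.127) or 4 (0.228) of IR with vehicle. That with enzalutamide was lost without replicate 3 (edgeR adjusted p 0.148) or 4 (0.168) of IR with enzalutamide.

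The 3 checkpoint kinase genes fell in each comparison. BUB1 (ENSG00000169679, chr2:110637528-110678063) stood at 34.4 and 38.6 CPM in mock, 13.5 and 16.9 CPM after IR in batch 1, 60.7 and 61.2 CPM in vehicle, 31.8 and 27.0 CPM after IR with vehicle, 65.9 and 53.6 CPM in enzalutamide, and 29.9 and 30.3 CPM after IR with enzalutamide. The log2 change was -1.09 (SE 0.108, edgeR adjusted p 9.93e-05) with vehicle, -1.03 (SE 0.108, edgeR adjusted p 0.000195) with enzalutamide and -1.26 (SE 0.14, edgeR adjusted p 0.000159) in batch 1. Samples with and without IR did not overlap in either batch, although mock samples of batch 1 were close to the irradiated samples of batch 2.

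BUB1B (ENSG00000156970, chr15:40161069-40221123) encodes BUBR1, the checkpoint protein that binds CDC20 in the mitotic checkpoint complex. It went from 85.3 and 96.6 CPM in mock to 48.7 and 58.4 CPM after IR, from 120 and 122 CPM in vehicle to 90.5 and 77.0 CPM, and from 130 and 113 CPM in enzalutamide to 77.0 and 78.4 CPM. The log2 changes were -0.57 (SE 0.0917, edgeR adjusted p 0.00591), -0.68 (SE 0.0925, edgeR adjusted p 0.00169) and -0.76 (SE 0.118, edgeR adjusted p 0.0025) with vehicle, with enzalutamide and in batch 1. The call with vehicle was lost without vehicle replicate 3 (edgeR adjusted p 0.0543) or 4 (0.0632) or without replicate 4 of IR with vehicle (0.125), and that with enzalutamide without replicate 3 of IR with enzalutamide (0.0568). The count of BUB1B is uncertain, because 82.0% of its span is shared with the antisense lncRNA LOC107984763 and 6.2% with the readthrough gene BUB1B-PAK6, and the use of strand in counting is not given in the sources used here. BUB1B-PAK6 itself had a log2 change of -0.45 (SE 0.0942, edgeR adjusted p 0.00521) in both batches together.

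TTK (ENSG00000112742, chr6:80004649-80042527), which recruits BUB1 to unattached kinetochores, went from 26.7 and 28.0 CPM in mock to 13.6 and 15.0 CPM after IR, from 38.2 and 33.7 CPM in vehicle to 23.0 and 22.2 CPM, and from 39.2 and 27.8 CPM in enzalutamide to 18.5 and 19.3 CPM. Its log2 change was -0.71 (SE 0.139, edgeR adjusted p 0.0247), -0.87 (SE 0.143, edgeR adjusted p 0.00784) and -0.93 (SE 0.131, edgeR adjusted p 0.00114) with vehicle, with enzalutamide and in batch 1. The enzalutamide replicates spread more (33.5 ± 8.04 CPM, SD, n = 2) than the irradiated ones (18.9 ± 0.575 CPM, SD, n = 2). The call with vehicle was lost without either vehicle replicate (edgeR adjusted p 0.285 and 0.0545), without either replicate of IR with vehicle (0.207 and 0.199) and without replicate 3 of IR with enzalutamide (0.0547). That with enzalutamide was lost without enzalutamide replicate 3 (edgeR adjusted p 0.0536) and without replicate 3 (0.148) or 4 (0.0977) of IR with enzalutamide.

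MELK and PBK are kinases of proliferating cells outside the spindle machinery. MELK (ENSG00000165304, chr9:36572895-36677682) was at 92.4 and 96.0 CPM in mock, 85.1 and 88.6 CPM after IR in batch 1, 156 and 151 CPM in vehicle, 160 and 127 CPM after IR with vehicle, 162 and 133 CPM in enzalutamide, and 148 and 147 CPM after IR with enzalutamide. In batch 2 the groups overlapped, with replicate 4 of IR with vehicle the lowest sample, and the log2 change was -0.14 (95% interval -0.37 to 0.10) with vehicle, -0.032 (-0.27 to 0.20) with enzalutamide and -0.11 (-0.34 to 0.11) in batch 1. PBK (ENSG00000168078, chr8:27809624-27837817) went from 37.3 and 29.8 CPM in mock to 24.8 and 26.5 CPM after IR, from 41.4 and 37.8 CPM in vehicle to 33.6 and 24.7 CPM, and from 39.3 and 33.7 CPM in enzalutamide to 26.7 and 27.5 CPM. Its irradiated samples were below their controls each time, yet the adjusted p by edgeR was 0.219 in batch 1, 0.14 with vehicle and 0.195 with enzalutamide. It passed with no filter on low counts with vehicle (edgeR adjusted p 0.0333) and with enzalutamide (0.0498), with the replicate block in all 3 (0.0105, 0.0024 and 0.00611), and in batch 1 without mock replicate 2 (0.0109). With both batches fitted together PBK fell by 0.44 on the log2 scale (SE 0.095, edgeR adjusted p 0.00744), a call lost without vehicle replicate 3 (edgeR adjusted p 0.0577), without replicate 4 of IR with vehicle (edgeR adjusted p 0.0842) or with t2 libraries alone in batch 1 (edgeR adjusted p 0.104). PBK shares 35.6% of its span with ESCO2, which had a log2 change of -0.079 (SE 0.0774, edgeR adjusted p 0.668), so reads of the overlap are a limit on it.

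**Figure D2:**
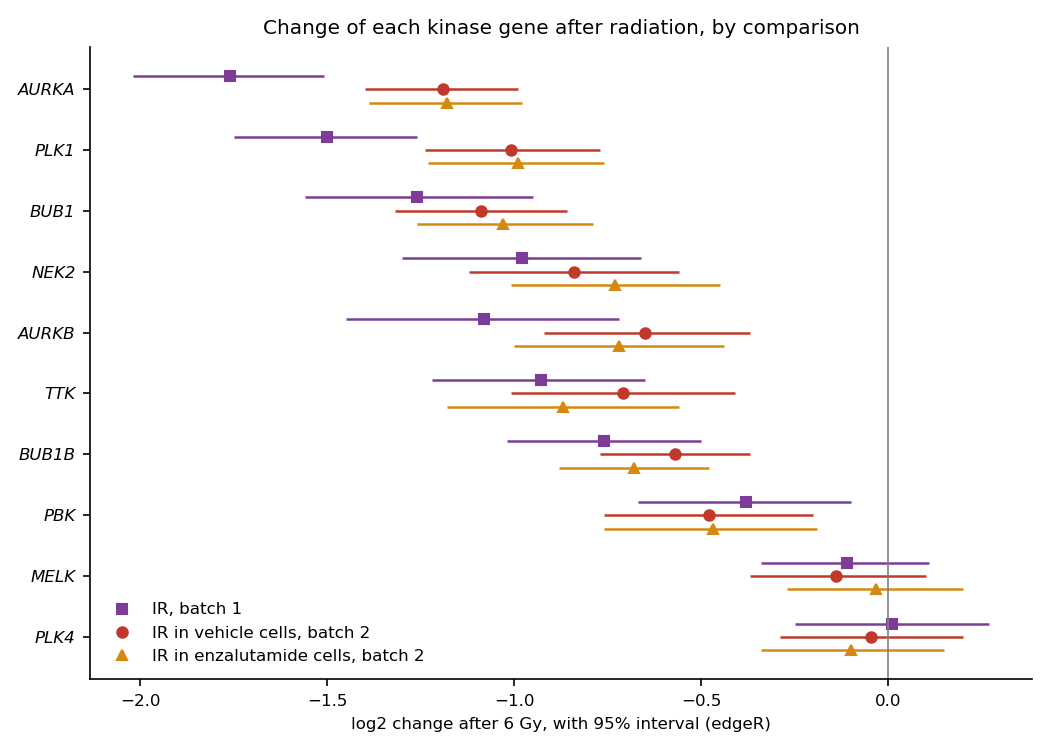
Log2 change after 6 Gy of each kinase gene (horizontal axis) with its 95% interval from edgeR, in batch 1 (squares), vehicle-treated cells (circles) and enzalutamide-treated cells (triangles). AURKA is furthest left, at -1.76, -1.19 and -1.18, and the intervals of MELK and PLK4 include 0 in all 3 comparisons.

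The ratios of related kinases also moved after IR. The ratio of AURKA to AURKB counts was 0.394 and 0.56 in mock against 0.282 and 0.29 after IR, 1.39 and 1.09 in vehicle against 0.817 and 0.865, and 1.31 and 1.22 in enzalutamide against 0.906 and 0.922. The mean change of this ratio over the 3 comparisons was -0.58 on the log2 scale. The ratio of PLK1 to PLK4 was 1.11 and 1.3 in mock against 0.399 and 0.439 after IR, 1.78 and 1.93 in vehicle against 0.94 and 0.965, and 1.78 and 2.02 in enzalutamide against 1.09 and 0.935, a mean change of -1.13. The ratio of BUB1 to BUB1B was 0.403 and 0.4 in mock against 0.277 and 0.29 after IR, 0.507 and 0.502 in vehicle against 0.351 and 0.351, and 0.508 and 0.474 in enzalutamide against 0.388 and 0.386, a mean change of -0.46. Every irradiated sample had the lower ratio within its comparison, for all 3 pairs. These pairs were chosen after the values were seen, so the ratios are a description, with no test.

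Enzalutamide was compared with vehicle, averaged over samples with and without IR, to ask whether it moved the kinase genes. Enzalutamide without IR was not tested on its own. None of the 10 passed by edgeR, against 0.0628% of all genes, with 0 passing by DESeq2. By edgeR 2 of the 10 had an unadjusted p under 0.05, as did 1780 of all 28651 genes. Averaged over IR, AURKA had a log2 difference of 0.17 (SE 0.0607, edgeR adjusted p 0.736), from 68.2 ± 0.929 to 76.8 ± 5.17 CPM (SD, n = 2) without IR and from 30.6 ± 1.09 to 34.6 ± 0.277 CPM (SD, n = 2) with it. PLK1 had 0.17 (SE 0.0704, edgeR adjusted p 0.769), from 58.4 ± 0.792 to 65.8 ± 1.05 CPM and, with IR, from 29.8 ± 3.92 to 33.9 ± 3.60 CPM (SD, n = 2). TTK lay lowest at -0.17 (SE 0.0952, edgeR adjusted p 0.835). All 10 intervals ran between -0.38 and 0.32, within a 1.5-fold change in either direction.

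The change after IR with enzalutamide was also compared directly with that in vehicle. No kinase gene passed this interaction test by edgeR or DESeq2, and 0 had an unadjusted p under 0.05. None of all the genes passed it either (0% of 28651), 343 having an unadjusted p under 0.05, and DESeq2 also called 0. The difference of the 2 changes was 0.0076 for AURKA (95% interval -0.28 to 0.30), 0.013 for PLK1 (-0.32 to 0.34) and 0.061 for BUB1 (-0.27 to 0.39). Over the 10 genes the intervals ran from -0.59 for TTK to 0.51 for NEK2, and 9 of 10 stayed within a 1.5-fold difference. These samples do not exclude differences inside these intervals.

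**Figure D3:**
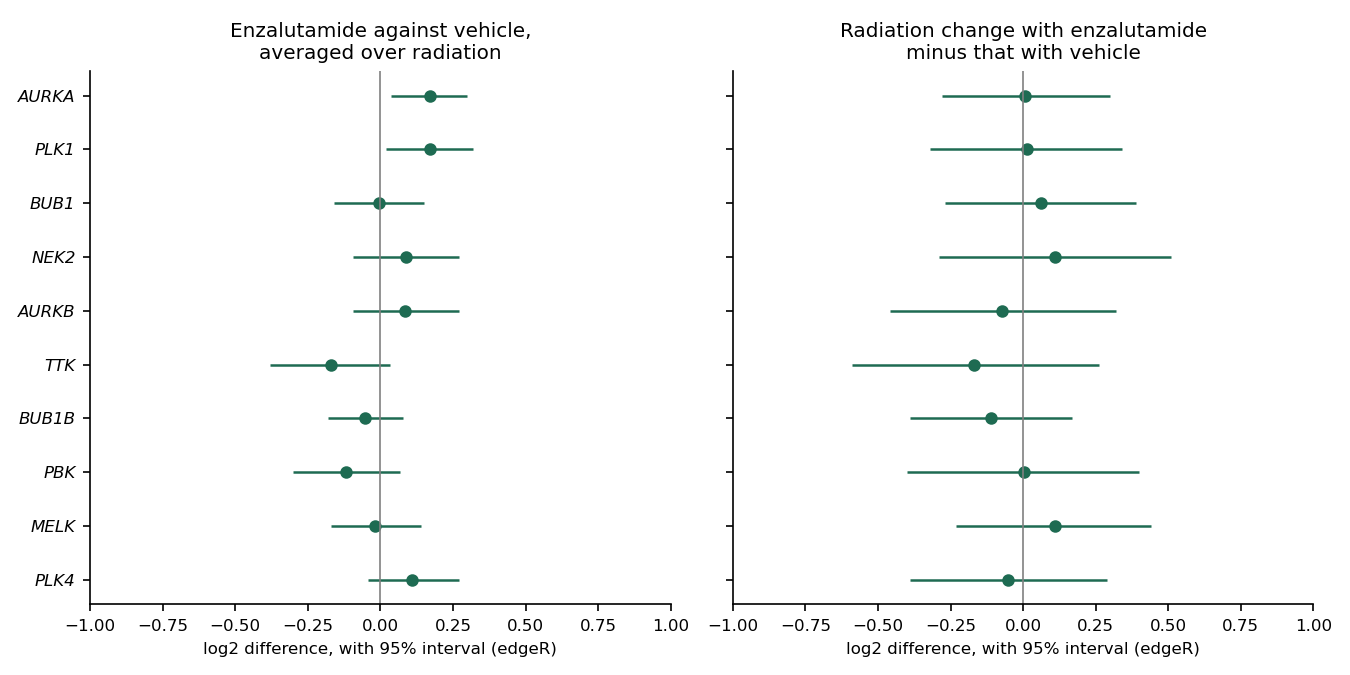
Left, log2 difference between enzalutamide and vehicle averaged over IR. Right, log2 change after IR with enzalutamide minus that with vehicle, each with 95% intervals from edgeR for the 10 kinase genes. On the left only the intervals of AURKA and PLK1 exclude 0 before adjustment over all genes, and on the right none does.

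The 2 batches were compared in the size of the change after IR, mock against IR in batch 1 beside vehicle against IR with vehicle in batch 2. None of the 10 genes passed by edgeR, against 0.106% of all genes, and DESeq2 called 0. By edgeR 2 of the 10 had an unadjusted p under 0.05, as did 1651 of all 29195 genes. AURKA had the lowest difference, with a log2 change -0.59 further down in batch 1 (SE 0.149, edgeR adjusted p 0.329), and PLK1 followed with -0.52 (SE 0.155, edgeR adjusted p 0.562). BUB1 had -0.19 (SE 0.175) and MELK -0.00064 (SE 0.154). The labels state the times of treatment as for batch 2, and those of batch 1 are not given separately.

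Within batch 1 the t1 and t2 libraries gave different pictures for 4 of the 10 genes, while AURKA, PLK1, BUB1, NEK2 and AURKB fell in both. PBK passed in neither, with -0.37 (edgeR adjusted p 0.119) in t1 and -0.34 (0.0861) in t2. Of the 4, PLK4 and MELK went in opposite directions without overlap, as did 39.5% of all genes tested in both sets. With t1 alone AURKA stood at 63.9 and 57.9 CPM in mock and 15.1 and 24.0 CPM after IR, and with t2 alone at 64.6 and 63.0 CPM against 19.6 and 16.1 CPM. Its log2 change was -1.62 (SE 0.181) and -1.85 (SE 0.126), with edgeR adjusted p of 8.03e-06 and 3.3e-07. PLK1 changed by -1.67 (SE 0.154) and -1.29 (SE 0.125), with edgeR adjusted p of 6.74e-07 and 6.4e-06. BUB1 changed by -1.58 (SE 0.184) and -0.83 (SE 0.174), with edgeR adjusted p of 1.31e-05 and 0.00174. These 3 genes fell whichever set of libraries was used. Single sets called many genes, 7.52% lower and 9.75% higher of all genes in t1 alone, and 21.7% lower and 23.0% higher in t2 alone. The difference between t1 and t2 was not tested.

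PLK4 moved in opposite directions in t1 and t2. In t1 it stood at 51.0 and 42.3 CPM in mock and 58.7 and 75.1 CPM after IR, a rise of 0.54 (SE 0.157, edgeR adjusted p 0.0237). In t2 it stood at 57.6 and 47.5 CPM in mock and 33.3 and 30.8 CPM after IR, a log2 change of -0.71 (SE 0.122, edgeR adjusted p 0.000423). The value near 0 from the summed libraries of batch 1 is therefore the sum of these, while the log2 change in batch 2, which has 1 library per replicate, was -0.045. BUB1B changed by -1.17 (SE 0.152, edgeR adjusted p 4.23e-05) in t1 and -0.23 (SE 0.114, edgeR adjusted p 0.12) in t2, and TTK by -1.54 (SE 0.189, edgeR adjusted p 2.32e-05) in t1 and -0.27 (SE 0.175, edgeR adjusted p 0.228) in t2. MELK had a log2 change of -0.48 in t1 and 0.31 in t2. In AURKB the mock libraries of t1 were far apart, at 216 and 90.3 CPM, and overlapped the irradiated ones, at 62.8 and 96.3 CPM. Its fall in t1 (-0.91, SE 0.267, edgeR adjusted p 0.0254) thus came with overlapping groups. In t2 the mock libraries were at 127 and 131 CPM and the irradiated ones at 53.8 and 44.9 CPM.

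**Figure D4:**
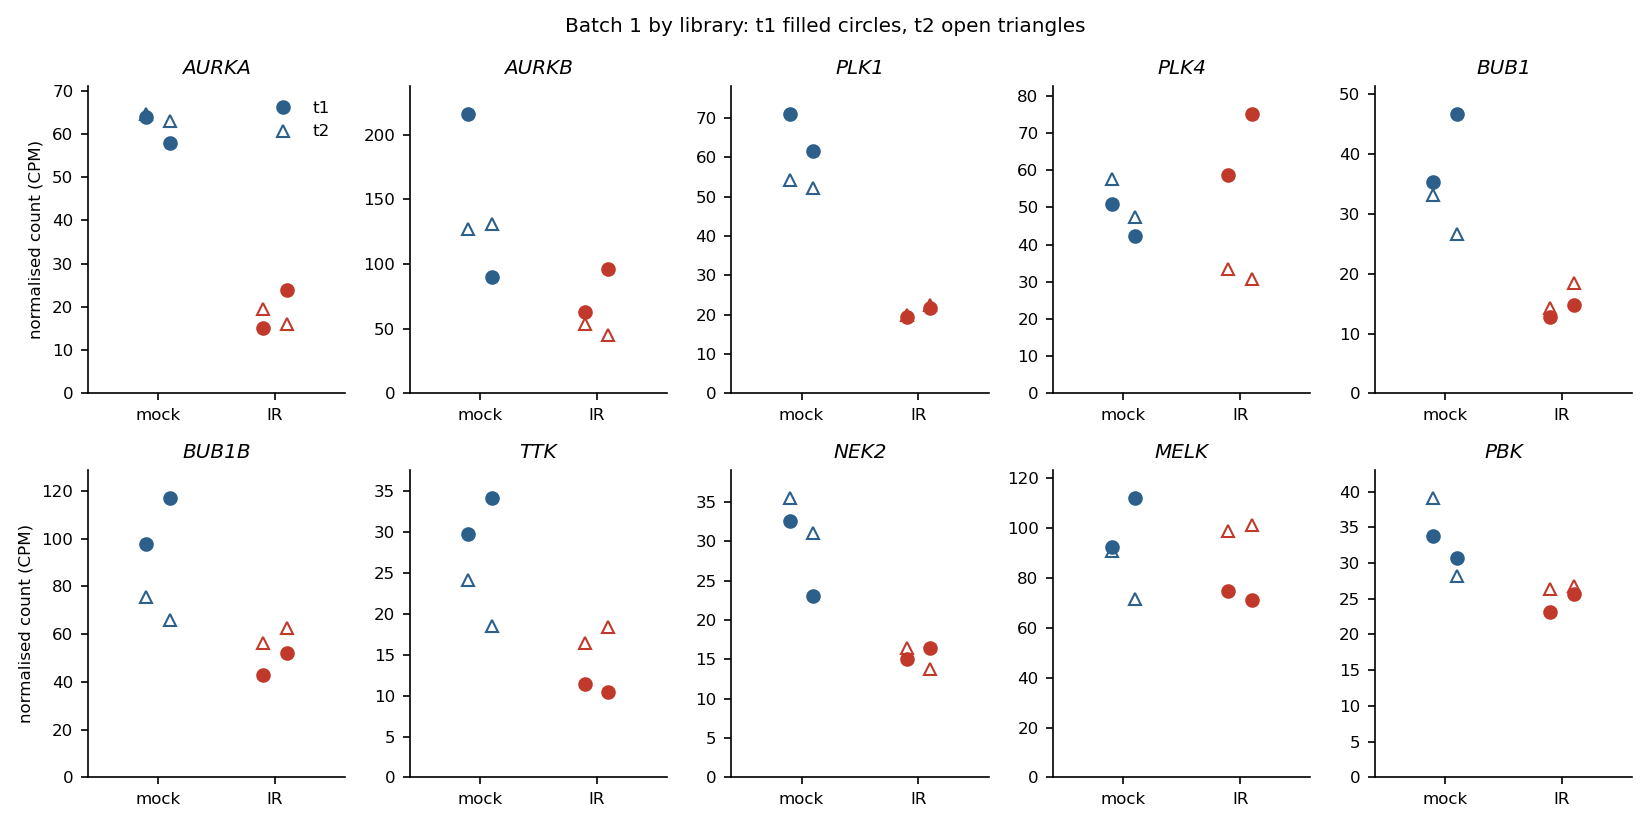
Normalised counts (CPM, linear axes from 0) of the 10 kinase genes in the 8 libraries of batch 1, with t1 as filled circles, t2 as open triangles, mock in blue and irradiated in red. AURKA, PLK1 and BUB1 are lower after IR in t1 and t2, while PLK4 is at 58.7 and 75.1 CPM after IR in t1 and at 33.3 and 30.8 CPM in t2.

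Between genes, levels are compared per kilobase of gene span, since longer genes collect more polymerases. Whether the counts cover whole spans or exons is not given in the sources used here, which limits this scale. On it AURKB, with the shortest span (5.8 kb), was highest in every group, from 6.24 CPM per kb after IR with vehicle to 23.3 CPM per kb in mock. In plain CPM AURKB was below MELK and BUB1B in vehicle (55.6 against 154 and 121). It was above them in mock (136 against 94.2 and 90.9). TTK was lowest in mock (0.721 CPM per kb) and in vehicle (0.95 CPM per kb). After IR in batch 1 BUB1 (0.375 ± 0.0599 CPM per kb, SD, n = 2) and TTK (0.376 ± 0.0264 CPM per kb, SD, n = 2) shared the lowest level. PLK1 came next below AURKB in vehicle, at 5.08 ± 0.069 CPM per kb (SD, n = 2), followed by AURKA at 2.99 ± 0.0407 and BUB1B at 2.01 ± 0.025 CPM per kb. PLK4 (1.72 ± 0.0751), BUB1 (1.5 ± 0.00949), MELK (1.47 ± 0.0368) and PBK (1.40 ± 0.0893 CPM per kb) followed. MELK did not differ from BUB1 or from PBK beyond their spread, while both BUB1 samples were above both PBK samples. The rank correlation of span and log2 change after IR over the 10 genes was 0.37, a description only.

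Among the groups, AURKA and PLK1 were highest in enzalutamide (76.8 and 65.8 CPM) and lowest after IR in batch 1 (18.4 and 21.1 CPM). Vehicle (58.4 ± 0.792 CPM) and mock (60 ± 2.43 CPM, SD, n = 2) did not differ beyond their spread for PLK1, and for AURKA vehicle was the higher (68.2 ± 0.929 against 62.7 ± 3.18 CPM, SD, n = 2). BUB1, BUB1B, TTK and PBK were highest in vehicle or enzalutamide, whose means did not differ beyond the spread of the replicates. For MELK the mean was 154 CPM in vehicle, 148 after IR with enzalutamide, 147 in enzalutamide and 144 after IR with vehicle. Replicate 3 of IR with vehicle reached 160 CPM, so MELK did not separate the groups by IR. NEK2, AURKB and PLK4 were highest in batch 1, where NEK2 and AURKB led in mock (30.6 ± 5.67 and 136 ± 40.1 CPM, SD, n = 2). PLK4 did not differ beyond the spread between mock (50.1 ± 7.58 CPM) and irradiated cells (50.3 ± 0.474 CPM, SD, n = 2). Across batches, the batch and the group cannot be told apart in these levels.

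The partners of these kinases were then counted from lists, here for IR in both batches, where 2.39% of all genes passed as higher and 1.66% as lower, and the median of all genes was -0.024. Of 14 partners and substrates of the aurora kinases, 8 fell and none rose, with a median of -0.56, and 6 fell with vehicle, 7 with enzalutamide and 6 in batch 1. TPX2, the activator of Aurora A, fell by 0.84 (SE 0.0694, edgeR adjusted p 5.95e-08), and the passenger complex genes CDCA8 and INCENP fell by 0.94 and 0.84 on the log2 scale (edgeR adjusted p 7.02e-08 and 6.18e-07). KIF20A, a kinesin of the central spindle, fell by 1.16 (SE 0.0959, edgeR adjusted p 6.61e-08). Of 18 genes tested among the polo-like family and its partners, 6 fell and 1 rose, and the median was 0.022. In the separate comparisons 2 fell with vehicle, 3 with enzalutamide and 5 in batch 1, and 1 rose each time. The single rise was PLK3, a polo-like kinase that responds to stress and DNA damage, from 12.6 and 10.6 CPM in vehicle to 35.8 and 40.4 CPM after IR, a log2 change of 1.64 (SE 0.0912, edgeR adjusted p 2.53e-10) in both batches. RACGAP1 and ECT2, which act in cytokinesis, and the phosphatase gene CDC25C fell by 0.82, 0.80 and 0.56 (edgeR adjusted p 9.24e-08, 1.33e-05 and 1.51e-05). PLK1 and PLK3, of the same family, thus moved in opposite directions after IR.

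Of 20 spindle checkpoint and kinetochore partners, 8 fell and 1 rose, with a median of -0.10, and 3 fell with vehicle, 3 with enzalutamide and 6 in batch 1. CDC20, the target of the checkpoint, fell by 1.18 (SE 0.0861, edgeR adjusted p 1.23e-08), and the kinetochore genes CENPE, NDC80 and NUF2 fell by 1.23, 0.98 and 0.58 (edgeR adjusted p 2.47e-08, 3.19e-07 and 0.000133). With t2 libraries alone in batch 1, 5 of this list passed over both batches, beside 657 of all genes. None of the 10 other NEK family genes passed by edgeR or DESeq2. By edgeR 1 of them had an unadjusted p under 0.05, as did 4714 of all 29195 genes. Of 15 other kinases of mitosis, 2 fell, CDK1 by 0.43 and WEE1 by 0.38 (edgeR adjusted p 0.00127 and 0.00104), and none rose. CDK1 passed with vehicle and with enzalutamide (edgeR adjusted p 0.00712 and 0.00899) but not in batch 1, where its log2 change was -0.26 (0.393), and WEE1 passed in none of the separate comparisons (0.138, 0.253 and 0.0783). With t1 libraries alone 1 of the 15 passed over both batches, beside 800 of all genes. With the replicate block 4 passed, 3 lower and 1 higher, beside 1954 of all genes.

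Among 15 genes of the DREAM and MuvB-B-MYB-FOXM1 regulators, 3 rose and none fell. With vehicle 1 rose, with enzalutamide 1 and in batch 1 alone 2. With t1 libraries alone the count over both batches was 1, beside 800 of all genes. Over all genes, 314 of 28651 passed in either direction with vehicle, 263 of 28651 with enzalutamide and 731 of 25889 in batch 1. Of these, 101, 84 and 212 were lower. CDKN1A, which encodes the p53-induced inhibitor p21, rose most, from 43.6 and 47.7 CPM in mock to 554 and 588 CPM after IR, from 35.7 and 43.5 CPM in vehicle to 314 and 347 CPM, and from 36.1 and 53.3 CPM in enzalutamide to 305 and 365 CPM. Its log2 change in both batches was 3.32 (SE 0.115, edgeR adjusted p 2.72e-13). RBL2, the p130 subunit of DREAM, and MYBL2, which encodes B-MYB, rose by 0.43 and 0.35 (edgeR adjusted p 0.0168 and 0.00669). MYBL2 passed in none of the separate comparisons (edgeR adjusted p 0.0613 with vehicle, 0.378 with enzalutamide and 0.293 in batch 1), and RBL2 passed in batch 1 (0.0295) but not with vehicle (0.363) or enzalutamide (0.279). Of 26 genes of G1/S and S phase, 6 rose and none fell, with a median of 0.19. TYMS rose by 1.08, E2F1 by 0.46, CDT1 by 0.37 and SLBP by 0.26 (edgeR adjusted p 1.23e-08, 0.000999, 0.0394 and 0.0253). In the separate comparisons 3 rose with vehicle, 1 with enzalutamide and 1 in batch 1, beside the counts over all genes given above. No conclusion about the list is drawn from a count of 1. TYMS passed in all 3 separate comparisons, E2F1 and CDT1 only with vehicle (edgeR adjusted p 0.00673 and 0.028), and SLBP in none (0.255, 0.489 and 0.362). The count over both batches fell to 2 without IR replicate 1 of batch 1, without vehicle replicate 3 or without replicate 3 of IR with vehicle, and to 3 without vehicle replicate 4.

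**Figure D5:**
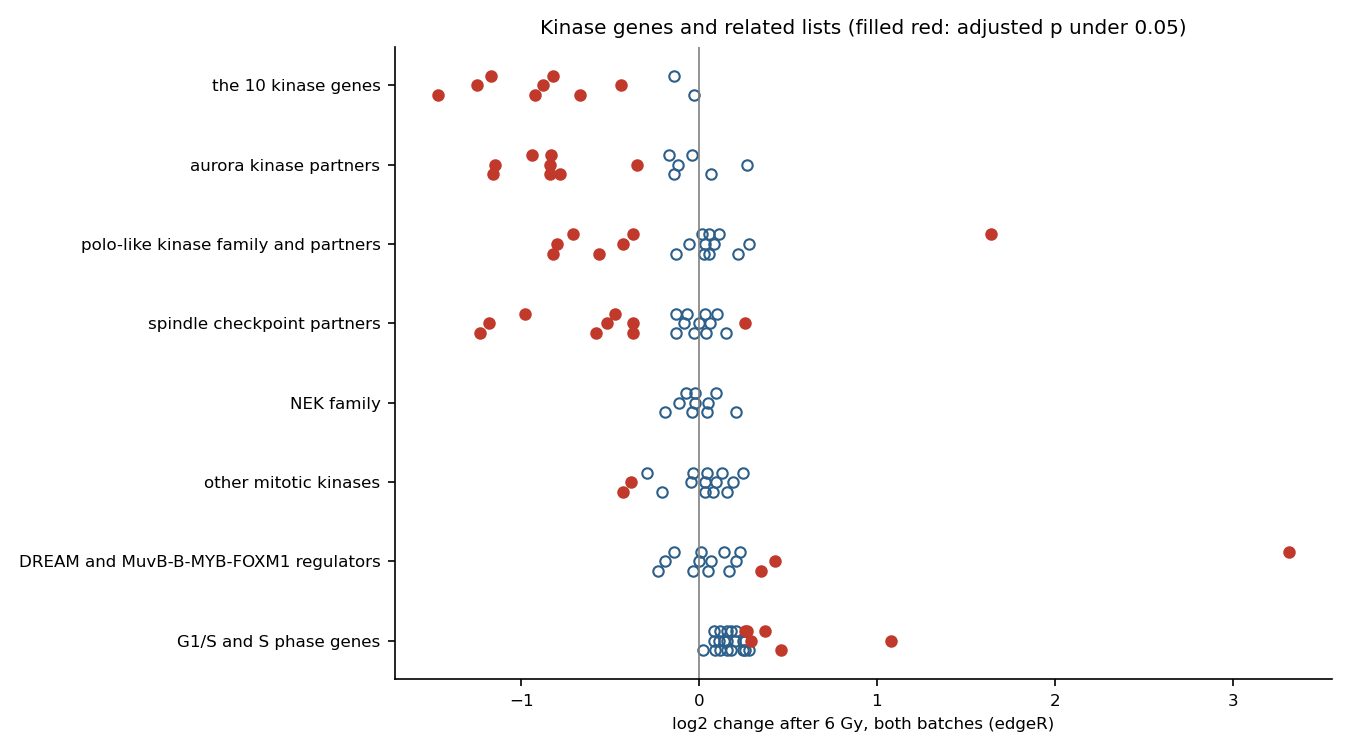
Log2 change after 6 Gy in both batches (horizontal axis) of the 10 kinase genes and of the genes of 7 lists, 1 point per gene, filled red where the edgeR adjusted p is under 0.05. Points of the aurora list reach -1.16, PLK3 stands at 1.64 and CDKN1A at 3.32, and the points of the G1/S genes lie right of 0.

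The genes whose pattern was most like that of 3 kinases were taken as those with the highest correlation of log2 CPM, centred within batch, over the 12 samples and among 18676 genes, the 10 kinase genes left out. They share libraries and the contrast of IR, so the values are descriptions. For AURKA they were DLGAP5 (r = 0.991), CDCA8 (0.99) and GTSE1 (0.989). For PLK1 they were PRC1 (0.991), CCNB1 (0.991) and CDCA8 (0.989), where CCNB1 encodes cyclin B1 and PRC1 a protein that bundles microtubules at the central spindle. For BUB1 they were CENPE (0.993), TOP2A (0.991) and TPX2 (0.991), TOP2A being the topoisomerase of chromosome condensation. Among the kinases, AURKA and PLK1 had r = 0.994 and BUB1 and BUB1B 0.99, while AURKA and PLK4 had 0.13 and AURKA and MELK 0.36.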

How the data were processed

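PRO-seq was measured in LNCaP cells, in 16 libraries that make 12 samples. The deposited tables, 1 per batch, hold raw read counts per Ensembl gene identifier, a unit inferred from whole numbers and unequal library totals. Per the submitters' processing notes, cutadapt 1.8.1, Bowtie2 2.4.4 and SAMtools 1.9 were used with build hg38. The counting tool, annotation, use of strand and removal of duplicates are not given in the sources used here. Of 60605 identifiers, 60463 (99.8%) matched a table of gene names. Gene spans and promoters come from RefSeq on GRCh38.p14.

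The t1 and t2 libraries of a batch 1 replicate were summed and counted as 1 sample. Genes were kept by filterByExpr, scaled by TMM and tested two-sided with edgeR 4.0.16 (glmQLFit, glmQLFTest) in R 4.3.3, with Benjamini-Hochberg adjustment over all genes and a threshold of 0.05. The 4 groups of batch 2 were fitted together, and a fit without the interaction gave the average effect of enzalutamide. IR in both batches was fitted with batch as a term, without the enzalutamide samples. Alternatives were RLE and total-count scaling, no filter, DESeq2 1.42.0, the replicate block, t1 or t2 libraries alone, and leaving out each sample. The steps were tested on simulated data.

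All 10 kinase genes are named. From each list the 4 genes with the smallest p for IR in both batches, among those past the threshold, are named. For AURKA, PLK1 and BUB1 the 3 genes with the highest correlation and a mean of at least 50 counts are named. The kinase genes and the lists were chosen with earlier results of these data known.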

Additional observations from a re-analysis of the deposited data

Results flagged for a closer look

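In batch 1, PLK4 changed by 0.54 after IR on the log2 scale in the t1 libraries and by -0.71 in the t2 libraries, with both irradiated libraries on the same side of both mock libraries each time. MELK changed by -0.48 in t1 and by 0.31 in t2 in the same way. The difference between t1 and t2 itself was not tested for either gene. Of 21749 genes tested in both sets, 39.5% showed such opposite directions, so the pattern is common in batch 1, and what t1 and t2 stand for was not given in the labels.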

How the results depend on the processing

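AURKA, PLK1 and BUB1 passed after IR, lower, in each of the 4 IR comparisons under every alternative run. In batch 2, leaving out 1 sample gave 3 to 7 kinase genes called in vehicle-treated cells and 3 to 7 in enzalutamide-treated cells, where TTK, AURKB, BUB1B and NEK2 each lost the call in some. In vehicle-treated cells the counts were 3 without replicate 4 of IR with vehicle and 4 without either vehicle replicate, and in enzalutamide-treated cells 3 and 4 without replicate 3 and 4 of IR with enzalutamide. The range was 7 to 8 in batch 1 and 7 to 8 in both batches, and 0 to 0 for enzalutamide, the interaction and the difference between batches. With t2 alone 5 passed in both batches. For the difference between batches 1 passed with t1 alone (TTK) and 3 with t2 alone (AURKA, AURKB and PLK4).

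Over all genes, leaving out 1 sample gave 161 to 511 calls with vehicle, 139 to 434 with enzalutamide, 0 to 4 for the interaction, 7 to 36 for enzalutamide averaged over IR, 587 to 1509 in batch 1, 897 to 1208 in both batches and 21 to 45 for the difference between batches. With no filter on low counts the calls were 624, 556, 32 and 230 for the first 4 of these, 1157 in batch 1 and 119 for the difference between batches. DESeq2 called 58 for enzalutamide averaged over IR. With t1 alone 3995 genes passed in batch 1 and 452 for the difference, and with t2 alone 9800, 657 in both batches and 5646 for the difference. The cause of these moves was not tested.

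The replicate block gave 1315 genes with vehicle, 951 with enzalutamide, 1 for the interaction, 272 for enzalutamide averaged over IR, 2332 in batch 1, 1954 in both batches and 96 for the difference between batches. PBK passed with it in every IR comparison (edgeR adjusted p 0.0024, 0.00611, 0.0105 and 0.0019), and no other kinase gene changed its call. Replicate differences of 2 groups correlated at 0.089 to 0.25 across genes in batch 2 and at 0.187 in batch 1, above 0 for all 7 pairs of groups but not over 0.1 for each, and the labels name nothing shared behind a number. The samples were therefore not treated as paired. Over both batches, 10 of the 26 G1/S genes passed with the block, all higher. Of the 10 NEK family genes 1 passed, beside 1954 of all 29195 genes. No conclusion about the NEK family is drawn from a count of 1.

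Changes of sign were confined to values that did not pass by the main test. For enzalutamide, BUB1 was 0.0055 with total counts. In batch 1, PLK4 was -0.71 and MELK 0.31 with t2 alone. In both batches, PLK4 was 0.0011 with RLE scaling and with DESeq2, 0.018 with no filter and 0.21 with t1 alone, and MELK 0.072 with t2 alone. For the difference between batches, PLK4 was -0.025 with RLE and DESeq2 and -0.66 with t2 alone, MELK 0.068 with total counts, 0.0062 with the block and 0.45 with t2 alone, NEK2 0.037 with t1 alone, and BUB1, BUB1B and TTK 0.26, 0.34 and 0.44 with t2 alone.

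Leaving out 1 sample also turned some of these signs, with ranges of -0.18 to 0.077 (PLK4 with vehicle), -0.14 to 0.10 (MELK with enzalutamide), -0.14 to 0.17 (PLK4 in batch 1) and -0.086 to 0.063 (PLK4 in both batches). For the interaction the ranges were -0.084 to 0.10 (AURKA), -0.25 to 0.084 (AURKB), -0.085 to 0.13 (PLK1), -0.17 to 0.09 (PLK4), -0.05 to 0.20 (BUB1), -0.36 to 0.088 (TTK), -0.025 to 0.26 (MELK) and -0.17 to 0.22 (PBK). For enzalutamide they were -0.057 to 0.054 (BUB1) and -0.092 to 0.039 (MELK), and for the difference between batches -0.14 to 0.19 (PLK4), -0.34 to 0.038 (NEK2), -0.18 to 0.16 (MELK) and -0.16 to 0.29 (PBK).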
